A study of Mus musculus with 4 samples.

Results

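The genes of the cytosolic ribosomal proteins were examined in whole mouse brain. Members were chosen by name: every array feature whose RefSeq accession belonged to a mouse symbol of Rpl or Rps followed by a number, or to Rplp0, Rplp1, Rplp2 or Rpsa, with the Rps6k kinases and pseudogene symbols ending in -ps left out. This gave 87 genes, carried by 153 array features, of 23462 named genes. They comprised 43 large subunit genes, 31 small subunit genes, the 3 genes of the stalk, and 10 paralogs, which are near copies of a subunit gene. One of these, Rps4l, is annotated as a transcribed pseudogene and was kept because its symbol does not end in -ps. The symbols Rps19bp1 and Rps23rg1 matched by their letters alone and name no ribosomal protein, so they were kept apart.

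Total RNA was hybridised to 4 single-colour Agilent arrays, 1 for each pairing of a genotype with an injection. Mice were either wild-type or Nav1.8Cre-ROSA26DTA (DTA in what follows), and either genotype was injected with phosphate-buffered saline (PBS) or with lipopolysaccharide (LPS), a cell wall component of Gram-negative bacteria. The dose of LPS was 20 mg/kg, into the peritoneum, with brains collected 12 hours afterwards. The Nav1.8-Cre driver acts in peripheral nociceptive neurons, where it turns on diphtheria toxin A from the ROSA26 locus and kills the cells, so the ablated neurons themselves lie outside the tissue measured. The labels give no age or sex and do not state whether an array holds 1 brain or several. With 1 array a group, the animal and the group cannot be told apart.

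Ribosomal proteins bind the ribosomal RNAs to form the small subunit, which reads the messenger RNA, and the large subunit, which joins amino acids. The acidic stalk proteins reach out from the large subunit and recruit the translation factors. Most of these messages begin with a C followed by a run of pyrimidines, the 5′ terminal oligopyrimidine tract, through which the mTOR kinase controls their translation, and total RNA does not report that control. Some members have a paralog with a restricted or inducible pattern, of which Rps27l, a target gene of p53, is one.

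Promoters from RefSeq (GRCm38.p6) are shown for the members on which the results turn: Rps27l and its parent Rps27, Rps13 and Rplp0, which differed most between the genotypes among subunit genes with bright features, and Rpl13a, often used as a reference gene. Rps4l has no entry in the promoter table. Each stretch holds 50 bases before the annotated start and 30 from the start on, on the gene's own strand. Capitals mark a match to one of the 4 motifs described next.
Rps27 (chr3:90213619-90213698, minus strand): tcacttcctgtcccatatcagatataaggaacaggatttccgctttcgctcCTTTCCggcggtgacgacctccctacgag
Rps27l (chr9:66946036-66946115, plus strand): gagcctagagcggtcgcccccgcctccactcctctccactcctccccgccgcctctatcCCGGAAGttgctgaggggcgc
Rpl13a (chr7:45128716-45128795, minus strand): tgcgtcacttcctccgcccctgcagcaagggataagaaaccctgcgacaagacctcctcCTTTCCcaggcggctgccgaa
Rps13 (chr7:116334161-116334240, minus strand): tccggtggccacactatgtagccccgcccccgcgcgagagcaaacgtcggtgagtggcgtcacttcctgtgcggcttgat
Rplp0 (chr5:115559417-115559496, plus strand): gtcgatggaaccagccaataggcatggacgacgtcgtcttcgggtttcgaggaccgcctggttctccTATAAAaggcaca

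Of the 87 members, 66 had a promoter entry of 300 bases, 57 of them subunit or stalk genes and 9 of them paralogs. The pyrimidine motif CTTTCC, searched on the gene's strand only, was present in 40.4% of these 57 promoters and in 16.0% of 27025 promoters of all genes. The motif CCGGAAG, the core bound by ETS factors, was searched on both strands and was present in 42.1% against 9.93%. The motif TCTCGCGA, also on both strands, was present in 19.3% against 1.13%, and TATAAA on both strands in 10.5% against 15.7%. Matches of different motifs were counted separately, also where they overlapped. These are matches of letters within a window and say nothing about binding.

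Values are given as log2 of the deposited processed signal over the array's 75th percentile, so that 0 is the 75th percentile. A feature's brightness depends on its own sequence and was not used to rank messages against each other. Of the 87 genes, 84 were well above background on all 4 arrays and 85 entered the model, which required 2 arrays. The 84 had a median signal of 40.1 times the 75th percentile, and 68 of them lay above the 95th percentile of all genes. Precision within an array was high: 60 member features, covering 48 genes, were printed as several spots, and their median SD between spots was 0.040 to 0.045 on the log2 scale. That is technical error within an array and holds nothing of the spread between animals.

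After LPS, none of the subunit or stalk genes passed the test, and the only member that did was the paralog Rps27l. Averaged over both genotypes, 1 of 85 members rose and 0 fell at a limma adjusted p under 0.05 with Benjamini-Hochberg adjustment. Among all 17132 genes tested, 5.62% rose and 4.54% fell. The members had a median difference of −0.11 on the log2 scale, against −0.03 for all genes. Differences were small: 83 of 85 members lay within 0.3 of 0 (97.6%), against 72.7% of all genes. Below 0 lay 73 members (85.9%), against 56.0% of all genes. With normexp background correction, which called 12.8% of all genes, 2 further members passed, Rpl29 and Rpl37rt, both as lower. The lean below 0 depended on the scaling between arrays, as the median was −0.0067 with quantile normalization and −0.0085 with cyclic loess. With the other genes' median set to 0 it was −0.137. The median of all genes moved as well, from −0.084 to 0.037 over 15 settings.

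**Figure D1:**
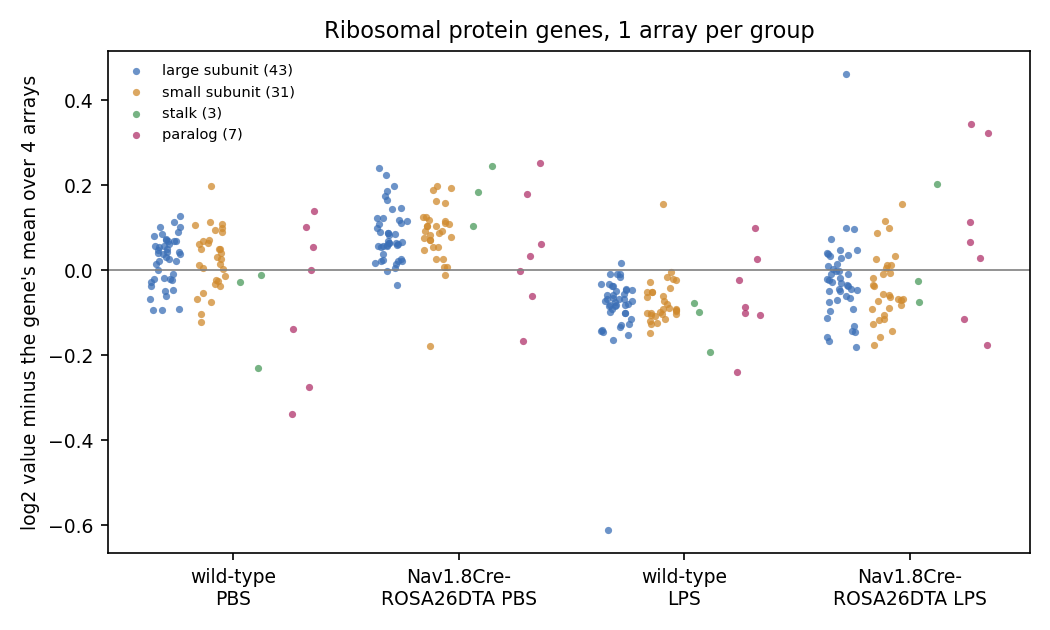
Each point is 1 of 84 ribosomal protein genes well above background on all 4 arrays, plotted as its log2 value minus its own mean over the arrays (vertical axis) for each array (horizontal axis), with roles in colours. The lone large subunit points, low with wild-type LPS and high with DTA LPS, are both the dim feature of Rpl37.

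The 77 subunit and stalk genes can be given with their intervals. Their LPS differences ran from −0.26 for Rpl29, a large subunit protein, to 0.13 for Rplp0, the stalk's anchor, and 69 of the 77 were negative. Limma's 95% interval reached to either side by 0.20 to 0.23 in all of them but Rpl37, where it reached by 0.63. Without Rpl37 the 76 intervals together spanned −0.49 to 0.33, a range of 0.712-fold to 1.26-fold, so larger differences lay outside every one of these intervals. A p above the threshold does not show that the values were equal. The interval rests mostly on the spread of other genes of like brightness, since the model had 1 residual degree of freedom against a prior of 7.99.

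By role, the median LPS difference was −0.10 for the 43 large subunit genes, −0.12 for the 31 small subunit genes and −0.17 for the 3 stalk genes. It was −0.01 for the 8 paralogs in the model. The lowest small subunit genes were Rps15 (−0.26), which lies in the head of the subunit, and Rpsa (−0.25), which also serves as a laminin receptor. Rpsa stood at 6.02 with wild-type PBS, 6.15 with DTA PBS, 5.83 with wild-type LPS and 5.83 with DTA LPS. Both LPS arrays were below both PBS arrays, and the adjusted p was 0.142. Rpl13a stood at 5.36, 5.50, 5.16 and 5.27 in the same order of arrays. Its LPS values too were lower than either PBS value, by 0.215 ± 0.090 on average (adjusted p = 0.189).

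Within the stalk, Rplp1 and Rplp2 had other signs than Rplp0. Rplp1 stood at 5.99, 6.26, 5.83 and 5.995, an LPS difference of −0.22 (adjusted p = 0.204). Rplp2 stood at 6.44, 6.64, 6.35 and 6.38, a difference of −0.17 (adjusted p = 0.341). Rplp0 stood at 4.58, 4.92, 4.74 and 5.02, a difference of 0.13 (adjusted p = 0.452). None of the 3 passed the test, and whether they differ from one another was not tested.

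Rps27l rose with LPS in both genotypes. Its values were 1.66 with wild-type PBS, 1.77 with DTA PBS, 2.04 with wild-type LPS and 2.28 with DTA LPS. Both LPS arrays lay above both PBS arrays. The difference was 0.37 in wild-type and 0.51 in DTA, and 0.44 ± 0.095 averaged, or 1.36-fold (limma adjusted p = 0.018). A second feature of the gene, A_51_P246907, gave 0.61, 0.76, 0.95 and 1.19 in the same order, a difference of 0.38. With every feature tested by itself, the first had an adjusted p of 0.038 and the second of 0.087. The call was kept in 9 of 10 other settings and lost without the intensity trend (adjusted p = 0.191). A fit without 1 of the arrays sets 2 against 1 with no term for genotype, so it cannot check the call. Its estimate, which includes part of the genotype difference, ran from 0.32, without DTA LPS, to 0.57, without wild-type LPS.

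The parent gene Rps27 had the opposite sign. It stood at 6.03, 6.04, 5.82 and 5.81, with 8 or 9 usable spots on each array and an SD between spots near 0.03. The LPS difference was −0.21 in wild-type and −0.24 in DTA, and −0.22 averaged (adjusted p = 0.182). Its second feature gave −0.18. The within-array ratio of Rps27l to Rps27 was therefore higher with LPS by 0.59 in wild-type and 0.75 in DTA, values with no test of their own. Of the 10 genes next to Rps27l in gene order, 5 on each side, 1 passed the LPS test, Tln2, the lowest of them, and their differences ran from −0.39 to 0.28.

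**Figure D2:**
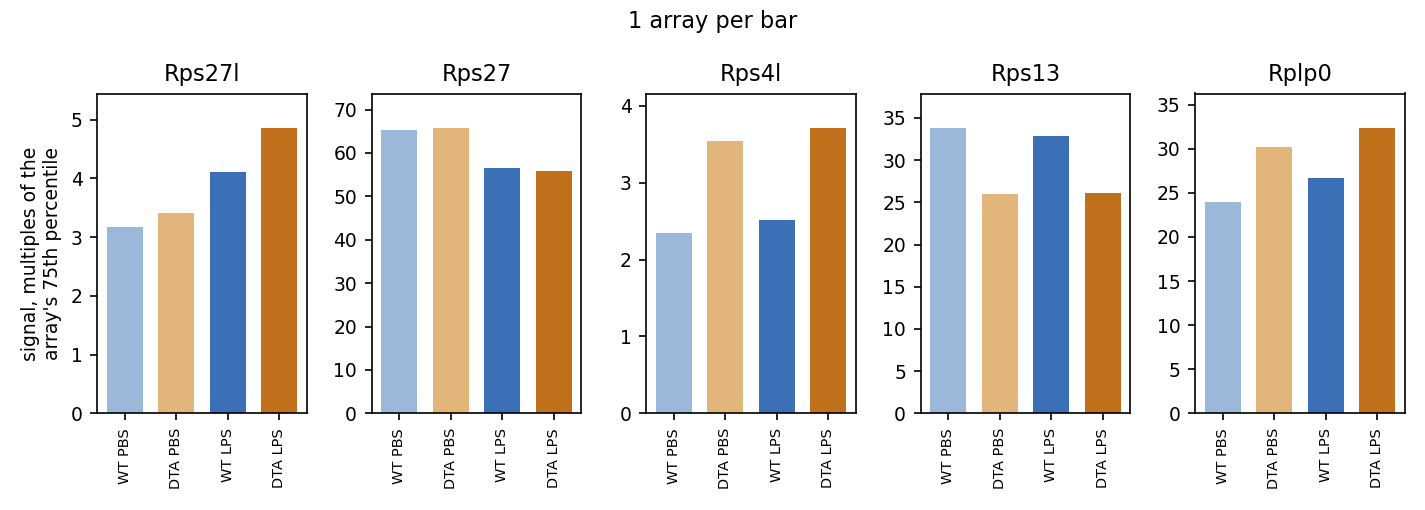
Bars give the signal of 5 genes on each array as a multiple of the array's 75th percentile, from 0, with 1 array per bar and no error bar; WT is wild-type. Rps27l is higher on both LPS arrays and Rps27 lower, Rps4l and Rplp0 are higher on both DTA arrays, and Rps13 is lower on both.

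Other paralogs showed no called LPS difference. Rpl22l1, a near copy of Rpl22, had −0.20 (adjusted p = 0.208), and Rpl22 itself −0.07. Rpl7l1, named for its likeness to Rpl7, had 0.14 (adjusted p = 0.620), and Rpl32l had −0.03. Rpl36al had 0.01, the mean of −0.08 in wild-type and 0.09 in DTA. Rps4l, which differed by genotype, had 0.09 for LPS. Rpl37rt, an intronless copy of Rpl37, had the brightest feature of the set, at 7.27, 7.34, 7.06 and 6.99, and an LPS difference of −0.28 (adjusted p = 0.123). The feature named for Rpl37 itself was dim, at −4.06, −3.72, −4.58 and −3.50. The copies are near identical, so which of the 2 genes the bright feature reports is uncertain.

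Dim paralogs gave bounds only. Rpl10l, a testis-enriched copy of Rpl10, was not well above background on any array. Rpl3l, the striated muscle copy of Rpl3, was above it with wild-type PBS alone. Rpl39l, a copy of Rpl39 best known from the testis, was above it with wild-type PBS and with DTA LPS. Its signal with DTA LPS was at least 3.58-fold higher than with DTA PBS and at least 3.48-fold higher than with wild-type LPS, the dim array being set at the higher of its own signal and the lowest signal well above background there. The model used the dim values as measured and gave Rpl39l an adjusted p of 0.871 for LPS and 0.518 for genotype.

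The pairs of arrays give the LPS response of each genotype, without a test. In wild-type, 0 of 84 members were at least 2-fold apart, where 4.03% of all genes were. In DTA the count was again 0 of 84, against 4.53% of all genes. The median was −0.11 in both genotypes, but in DTA it turned to 0.0106 with quantile normalization and 0.0264 with cyclic loess. The lowest members in wild-type were Rpl37 (−0.52, dim), Rps21 (−0.24) and Rpl22l1 (−0.23), and the highest were Rps27l (0.37), Rpl7l1 (0.17) and Rplp0 (0.15). In DTA the lowest were Rpl37rt (−0.36), Rpl29 (−0.35) and Rps15 (−0.35), and the highest Rps27l (0.51), Rpl37 (0.22) and Rpl7l1 (0.12).

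The difference of the 2 LPS responses, DTA minus wild-type, had a median of −0.02 over the 84 members. None of the 84 reached 2-fold, against 2.5% of all genes. Rpl37 was highest at 0.74, followed by Rpl23a at 0.21, a protein at the exit of the nascent chain, and Rpl34 at 0.17. The lowest were Rps29 (−0.20), Rpl3 (−0.20) and Rpl37a (−0.19). With 1 array a group, none of these has a replicate check.

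**Figure D3:**
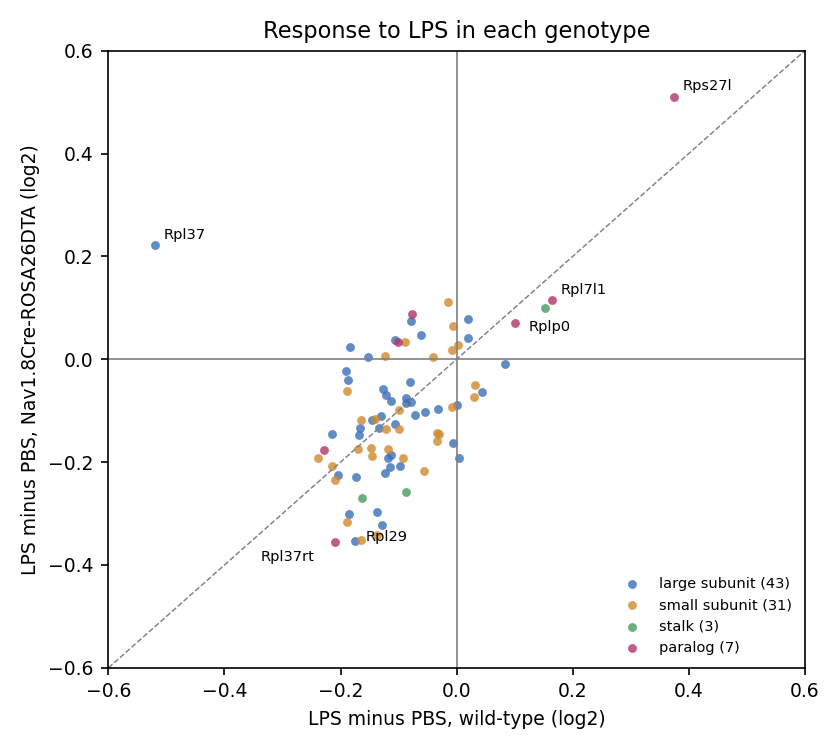
Each point is 1 of 84 ribosomal protein genes, with its LPS minus PBS difference in wild-type on the horizontal axis and in DTA on the vertical axis, both log2, coloured by role; the dashed line marks equal differences. Rps27l stands alone at the upper right, at 0.37 and 0.51, and Rpl37, a dim feature, at the upper left.

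Between the genotypes, 1 member was higher in DTA, the paralog Rps4l, and 0 were lower. Among all genes 0.304% were higher and 0.105% lower by the same test. The member median was 0.06 against 0.02 for all genes, and without the DTA PBS array or without the wild-type LPS array it was −0.0055 and −0.0061. By role it was 0.06 for the large subunit, 0.04 for the small subunit and 0.22 for the stalk. With PBS, 0 of 84 members were 2-fold apart, against 1.62% of all genes, and with LPS 1 of 84, Rpl37 at 1.08, against 1.2%.

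Rps4l is a copy of the small subunit gene Rps4x and is annotated as a transcribed pseudogene, so its signal need not stand for a protein. It stood at 1.23 with wild-type PBS, 1.82 with DTA PBS, 1.33 with wild-type LPS and 1.89 with DTA LPS. Both DTA arrays were above both wild-type arrays, by 0.59 with PBS and 0.56 with LPS. The averaged difference was 0.58 ± 0.095, or 1.49-fold (limma adjusted p = 0.047). Rps4x differed by 0.04 (adjusted p = 0.938). The Rps4l call stood close to the threshold: it was kept in 6 of 10 other settings and lost with cyclic loess (adjusted p = 0.0797), the deposited value table (0.105), the mean of the gene's features (0.0526) and no intensity trend (0.432). Fits without 1 array set 2 arrays against 1 with no term for agent, so they cannot check the call. Their estimates, which include part of the LPS difference, were 0.53 to 0.63. Rps4l had 1 feature printed as 1 spot. Its 10 neighbours in gene order on chromosome 6 had genotype differences from −0.33 to 0.70, and 0 of them passed the test.

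Rps13, a small subunit protein at the subunit interface, was the lowest member between the genotypes, at 5.08 with wild-type PBS, 4.70 with DTA PBS, 5.04 with wild-type LPS and 4.71 with DTA LPS. Its feature was printed as 10 spots. They ran from 5.02 to 5.13, 4.66 to 4.75, 4.99 to 5.08 and 4.67 to 4.76 in that order, so no spot of one genotype overlapped those of the other. The difference was −0.38 with PBS and −0.33 with LPS, and −0.36 ± 0.089 averaged, or 0.782-fold, with a limma adjusted p of 0.155. The spots show that the gap between these arrays exceeded the printing error, and do not replicate the animals. Such a gap was not particular to Rps13: the 10 spots of an Rps2 feature ran from 4.06 to 4.24 in wild-type and from 4.31 to 4.50 in DTA. The usable spots of Rps14 reached up to 6.526 in wild-type and began at 6.527 in DTA. The share of all features with such a gap was not counted. Among the settings tried, the Rps13 difference passed the test only with normexp background correction (adjusted p = 0.0299) and without the filter on dim features (0.0232). Of all genes these settings called 2.26% and 4.08% for genotype, against 0.41% in the main fit. Among 10 neighbours in gene order on chromosome 7, from Calca to Arl6ip1, 0 passed, with differences from −0.27 to 0.39. One neighbour is itself a member: Rps15a, singled out after its values were seen, had 3 features. The dim one, at 0.224 to 0.343 times the 75th percentile, differed between genotypes by −0.44, and the bright ones, at 11.1 times or more, by 0.21 and 0.09.

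Rplp0, a common reference gene in quantitative PCR, was higher on both DTA arrays, by 0.33 with PBS and 0.28 with LPS. The average was 0.31 ± 0.089, or 1.24-fold (adjusted p = 0.227), which did not pass. Its feature was printed once. Its 10 neighbours ran from −0.18 to 0.12, with 0 passing. Of the other genes at the ends of the genotype pairs, Rpl36al (−0.11) and Rpl30 (−0.11) were lowest after Rps13 with PBS. With LPS, Rpl30 (−0.18) and Rpl31 (−0.14) followed Rps13, and Rps2 (0.28), whose protein lies at the messenger RNA entry, followed Rpl37 and Rps4l as the highest. The other Rps2 feature gave 0.09 with LPS. With PBS it gave 0.41, where the first gave 0.21.

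Different features of a gene served as a second reading. Over the 48 genes with 2 or more features, the median SD between them was 0.0316 for the LPS difference and 0.0156 for the genotype difference. The 5 genes whose features differed most for LPS were Rpl29, Rpl27, Rps2, Rpl15 and Rps19. For Rpl29 the 3 features gave −0.26, −0.09 and 0.04, so its place as the lowest subunit gene rested on the brightest feature. Rpl27 gave −0.08 and 0.08, Rps2 0.03 and −0.13, Rpl15 0.04 and 0.17, and Rps19 −0.16 and −0.05. These messages have processed pseudogenes in large number, with 321 such symbols ending in -ps in the gene table, and a feature can report a gene together with its copies.

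The LPS difference was lower in brighter members. Across the 84 genes, which share the arrays and are not replicates, Spearman's rho between mean brightness and LPS difference was −0.53 (Pearson's r = −0.46). It was −0.25 in wild-type and −0.64 in DTA, and −0.14 over all 16244 genes for the average. The brighter 42 members had a median of −0.15 and the dimmer 42 of −0.08. The 351 other genes as bright as the brighter 42 had −0.13, a value close to that of the members themselves. The part of brightness in the members' lean was not tested.

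**Figure D4:**
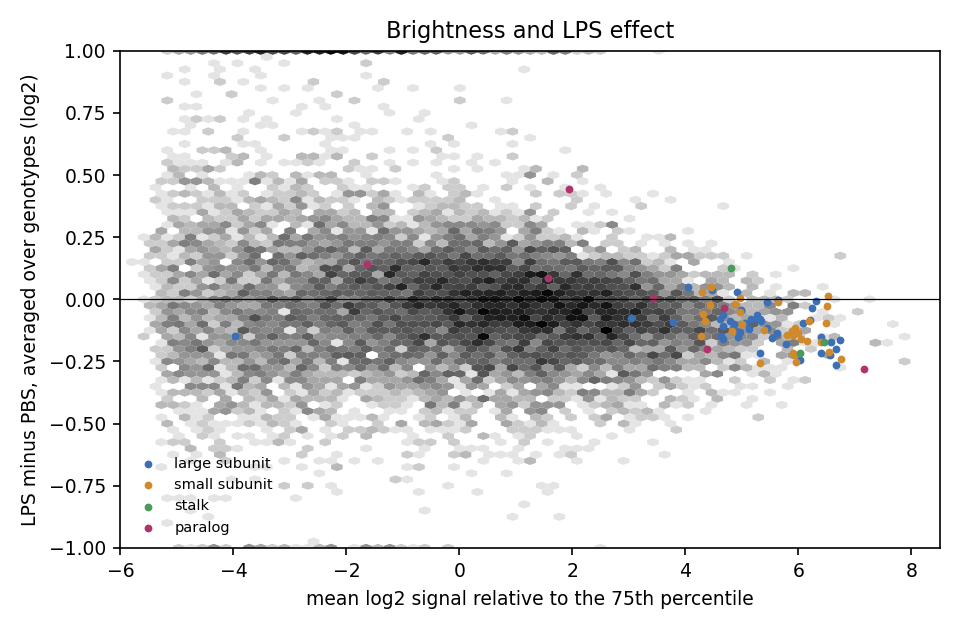
The mean log2 signal over the 4 arrays (horizontal axis) is set against the averaged LPS minus PBS difference (vertical axis, log2) for 84 ribosomal protein genes in colours by role, over all other genes as grey bins on a log shade, with values past the ends of the vertical axis drawn at its edge. The members lie at the bright end, where grey bins also sit slightly below 0.

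Genes that share the members' machinery were counted from lists, to be read against the 5.62% of all genes that rose and 4.54% that fell. The counts are small and call nothing particular to a list. Among 78 mitochondrial ribosomal protein genes 2 rose, Mrps6 (0.47, adjusted p = 0.016) and Mrpl41 (0.35, adjusted p = 0.036), with a list median of 0.02. Of 16 elongation factors and other terminal oligopyrimidine messages 0 passed, with a median of −0.06. Of 36 initiation factors 1 rose, Eif2b2 (0.37, adjusted p = 0.035), a subunit of the exchange factor for eIF2. Of 40 ribosome assembly factors 1 rose, the helicase gene Ddx21 (0.68, adjusted p = 0.018), and of 16 genes of RNA polymerase I transcription 1 rose, Myc (1.30, adjusted p = 0.004). Of 21 mTOR pathway genes 2 rose, Ddit4 (1.31) and Sesn1 (0.38, adjusted p = 0.035). In none of these 6 lists did a gene fall with LPS or pass the genotype test.

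Cell markers moved between the arrays. Sums of signal are multiples of the 75th percentile, in the order wild-type PBS, DTA PBS, wild-type LPS and DTA LPS. The sum of 5 oligodendrocyte markers, all above background on each array, was 90.9, 132, 66.0 and 147. Of these 5, 1 passed the genotype test as higher in DTA, with a list median of 0.68. With LPS 1 rose, though the list median was −0.27. The sum of 6 neuron markers, all above background as the tissue label implies, was 259, 250, 231 and 223, and 1 of them fell with LPS. The red cell sum, over the 4 of 5 markers in the model, was 40.1, 293, 97.3 and 155. On each array 3 or 4 of the 5 were above background, and none passed either test. The sum of neutrophils and monocytes, over the 5 of 6 markers in the model, was 0.316, 3.43, 40.0 and 61.4. Of these 5 markers 4 rose with LPS. Of 5 microglia markers 3 fell with LPS, with a list median of −0.63 and sums of 32.9, 40.0, 28.8 and 29.2. Of 5 endothelial markers 1 rose and 2 fell, with sums of 17.5, 18.3, 35.7 and 29.0, and of 5 astrocyte markers 1 fell, with sums of 245, 267, 228 and 228. The choroid plexus sum, over the 2 of 4 markers in the model, was 0.119 to 0.231. The sum of 3 ependyma markers, 2 of which rose with LPS, was 0.167 to 0.542. The part of these cell types in the differences of Rps4l, Rps13, Rplp0 and Rps27l was not tested, and in bulk tissue fewer cells of a type and less RNA per cell cannot be told apart.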

How the data were processed

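Total RNA of 4 whole brains or pools was measured on 1 array per group, all on 1 slide read in 1 scan. The deposited intensity used here is the processed signal, background-subtracted and detrended within the array, per the file headers. Agilent Feature Extraction is version 11.0.1.1 in the submitters' processing notes and 12.0.3.1 in the file headers. The deposited value table, also an intensity, served as an alternative. Each array held 59305 spots; of these 66.5% to 69.5% passed the software's test against background, 81 to 96 were left out as outliers, and 0 were saturated. The 75th percentiles were 612, 514, 634 and 726.

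Spots of a feature were averaged, and features were named by RefSeq accession through a GRCm38.p6 gene table, used for names and gene order. A gene was represented by its feature above background on the most arrays, then the brightest. Genes above background on at least 2 arrays were fitted with limma 3.58.1 in R 4.3.3, with terms for genotype and agent and an intensity trend. The two-sided p-values were adjusted by Benjamini-Hochberg over 17132 genes, with a threshold of 0.05, and ± gives limma's standard error. With 1 array a group, the model's only residual is the difference of the 2 LPS responses, pooled over genes by limma. The p-values and standard errors rest on that residual. No separate animals are named, so they do not measure the spread between animals. The fit was tested on simulated data and recovered known changes; false calls exceeded the nominal rate in most draws, which bears on calls near the threshold, such as Rps4l. Named genes were called members, paralogs, the 3 highest and lowest of each pair of arrays, the 5 with the most unlike features, called genes of the lists, and those with a printed promoter. Members and lists were chosen with earlier results of these data known. Alternatives covered scaling, background, filter, features, trend and single arrays. Fits without 1 array held a term only for the effect in question, so each estimate includes part of the other effect. Normexp (offset 50) used the median signal, where the plan had named the mean signal. One list of other translation genes and 1 member's single values are not reported here.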

Additional observations from a re-analysis of the deposited data

Results flagged for a closer look

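The LPS difference had opposite signs in the 2 genotypes in 20 of the 85 ribosomal protein genes in the model. The share of all genes with opposite signs is not given, so the count marks nothing particular to the members. With 1 array a group, the difference between genotypes was not tested, and many of these values lie near 0. Values given are DTA minus wild-type, on the log2 scale. The difference was below 0 in wild-type and above 0 in DTA mice, in order of size, in Rpl23a (0.21), Rpl36al (0.16), Rpl22 (0.16), Rpl32 (0.15), Rpl14 (0.14), Rpl32l (0.13), Rps15a (0.13), Rps14 (0.12), Rpl11 (0.11), Rps2 (0.071), Rps13 (0.045) and Rps6 (0.027). It was above 0 in wild-type and below 0 in DTA mice in Rpl3 (−0.20), Rpl10a (−0.11), Rps4x (−0.10), Rpl15 (−0.092), Rpl6 (−0.091) and Rps12 (−0.083). Rpl37, whose feature was dim, had −0.52 in wild-type and 0.22 in DTA mice, 0.74 apart. Rpl39l had −2.49 and 1.86, 4.35 apart, and was well above background on 2 of the 4 arrays only, so these are measured signals and not folds.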

How the results depend on the processing

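Counts here are for fits of all 4 arrays, since a fit without 1 of them leaves a single array on a side. The count of members called for LPS, 1, was the same under 9 alternatives. It was 3 with normexp, which added Rpl29 (−0.28, limma adjusted p = 0.0365) and Rpl37rt (−0.29, adjusted p = 0.0234) as lower. It was 0 without the intensity trend. Of all genes 10.2% were called for LPS in the main fit, 12.8% with normexp and 2.51% without the trend. The count for genotype, 1, was 0 with cyclic loess, the deposited value table and the mean of a gene's features. It was also 0 with every feature by itself and with no intensity trend. It was 2 with normexp and 3 without the filter on dim features. Of all genes these settings called 2.26% and 4.08% for genotype, against 0.41% in the main fit. The 3 included Rpl39l, above background on 2 arrays only. The median LPS difference, −0.11, was −0.158 with scaling to the median, −0.0067 with quantile normalization, −0.0377 with the deposited value table and −0.0085 with cyclic loess. The median genotype difference, 0.06, was 0.0250 with quantile normalization and 0.0349 with cyclic loess. It was 0.0207 with the deposited value table and 0.0325 with the other genes' median set to 0. With 1 array left out, and then no term for agent, it ran from −0.0061 to 0.115. In wild-type the LPS median was −0.143, −0.0173, −0.0301, −0.0569 and −0.136 with median scaling, quantile normalization, cyclic loess, the deposited value table and the other genes' median at 0. In DTA mice it was −0.180, 0.0106, 0.0264 and −0.0254 with the first 4 of these. The genotype median with PBS was 0.00824, 0.00505 and 0.00315 with quantile normalization, cyclic loess and the deposited value table, and the median difference of the LPS responses was 0.0426 with cyclic loess. The causes were not tested. No paired analysis was possible because the labels carry no replicate numbers and each group has 1 array. The number of arrays limits the precision of every value.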
